A study of Mus musculus with 25 samples.

Results

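The genotype by time interaction at Day 14 was taken in mouse lung as the FP-KO change between Day 14 and Day 0 minus the WT change over the same interval. A positive value means that the FP-KO lungs ended higher, relative to their own Day 0, than the WT lungs did. FP-KO is the labels' name for mice without the prostaglandin F receptor FP, the product of Ptgfr. The 4 groups were FP-KO lungs on Day 14 (4 mice), FP-KO lungs on Day 0 (4 mice), WT lungs on Day 14 (5 mice) and WT lungs on Day 0 (4 mice), chosen by genotype and day in the sample titles, and they make up 17 of the 25 arrays of the series. All mice were female. The Day 14 mice had been given bleomycin intratracheally on Day 0 (1 mg/kg, 40 ul saline). The same dose is listed for the Day 0 mice, and that entry does not tell whether they were dosed before their lungs were taken. Strain, age and the way the receptor gene was disrupted are not given in the sources used here. Saline-instilled lungs of Day 14 were not analysed here, so bleomycin and the instillation itself cannot be told apart. The comparison asks which parts of the lung's response to bleomycin were blunted, kept or reversed without the receptor.

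FP is a G protein-coupled receptor for prostaglandin F2α, a lipid made from arachidonic acid through the cyclooxygenases. Its best known actions are the contraction of smooth muscle in the uterus and the regression of the corpus luteum. Bleomycin breaks DNA, injures the alveolar epithelium and sets off inflammation, after which fibroblasts lay down collagen and other matrix proteins and the lung scars.

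Each array reported 45101 probe sets of the Affymetrix mouse 430 2.0 design, of which 1 probe set per gene was used and 12062 genes were tested. Values are array intensities, and changes are differences of mean log2 intensity, tested with limma where p-values were adjusted by Benjamini-Hochberg across the tested genes and 0.05 was the threshold. Ptgfr itself read 24.3, 33.6, 46.8 and 27.5 in FP-KO Day 14 lungs and 58.9, 30.9, 53.7 and 30.5 in FP-KO Day 0 lungs, against 175, 134, 162, 190.0 and 257 in WT Day 14 lungs and 268, 339.7, 361 and 250.3 in WT Day 0 lungs. All 8 FP-KO arrays lay below all 9 WT arrays, with 24.3 the floor set for dim values, and the interaction of Ptgfr, 0.37 ± 0.33 (SE), did not pass. The lung markers Sftpc (surfactant protein C), Ager (type 1 cells) and Scgb1a1 (club cells) read 31299 to 35808, 23264 to 29063 and 38200 to 40107 over the 17 arrays. FP-KO Day 14 mouse No. 2 stood apart from its group: on the first principal component of all 25 arrays (42.0% of the variance) it lay at -28.9, among the Day 0 arrays at -35.0 to -24.8, while the other 3 FP-KO Day 14 arrays lay at -5.37 to 1.44 and the WT Day 14 arrays at 13.4 to 25.6. Its 18S ribosomal probe set read 2393, against 79.6 to 260 in the other arrays of its group, though FP-KO Day 0 No. 1 read 1230, and its ratio of 3′ to 5′ Actb probe sets was 1.56, against 1.38 to 1.40 in its group. The part of these technical values in its profile was not tested, and the main results below are given with and without this mouse. The second component (16.9%) split the Day 14 arrays into a first set of FP-KO No. 1 and 2 with WT No. 1 to 3, at -30.1 to -27.7, and a second set of FP-KO No. 3 and 4 with WT No. 4 and 5, at -1.35 to 2.28. The sources used here do not say what separates these sets, and values within each set are printed for the main gene groups. Nothing in the labels beyond the mouse numbers says how the animals were assigned, so p-values measure the spread between these arrays.

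Without the receptor, the response of the lung at Day 14 was smaller in both directions, and with all mice no gene passed the test as reversed. The interaction passed for 376 of the 12062 genes (3.12%). Of these, 222 (1.84%) were lower and 154 (1.28%) higher in FP-KO lungs, and 2200 genes had an unadjusted p under 0.05. The change over time itself passed for 393 genes in FP-KO lungs (223 rose, 1.85%, and 170 fell, 1.41%) and for 4664 genes in WT lungs (2306 rose, 19.1%, and 2358 fell, 19.5%). Without FP-KO Day 14 No. 2 the FP-KO count was 570 (384 rose, 3.19%, and 186 fell, 1.54%). Leaving out 1 array at a time gave FP-KO counts of 105 to 570. The median size of change over all tested genes was 0.14 in FP-KO lungs and 0.25 in WT lungs. The shares over all genes given here are the reference for each list count below. Just inside the threshold were Ctsc (interaction -0.43 ± 0.12, SE) and Dzank1 (0.69 ± 0.19), both at an adjusted p of 0.0499, and just outside it were Ccr2 (-1.06 ± 0.30) at 0.050 and Ccl8 (-1.75 ± 0.49) at 0.0508.

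Of the 376 genes, 366 were blunted, meaning that the WT change passed, the interaction had the opposite sign to it, and no FP-KO change passed in the opposite direction. The interaction subtracts the WT change, so the calls share their arrays, and a gene with a large WT change enters this class more readily. The blunted genes comprised 215 that rose in WT lungs, with a median change of 0.27 in FP-KO and 1.29 in WT, and 151 that fell in WT lungs, with medians of -0.09 in FP-KO and -0.85 in WT. The FP-KO change was a median of 16.9% of the WT change over the blunted genes, 22.1% for the rises and 9.72% for the falls. These shares rest on genes called for a small FP-KO change, and over the responding genes described below, chosen on the mean change, the order was the other way, 41.7% for the rises and 63.7% for the falls. It was under 50% for 363 of the 366, passed its own test for 35, and had the opposite sign, without passing, for 90. No gene was enhanced, and 5 changed in FP-KO lungs alone among the called genes. The other 5 passed on the interaction while neither genotype's change passed: Cd274 (the checkpoint ligand PD-L1), Dnah5 (a dynein heavy chain of cilia), Fermt3 (an integrin activator of blood cells), Lonrf3 and Pilrb1.

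Leaving out FP-KO Day 14 No. 2 reduced the count to 123 of 12039 genes (1.02%), 72 lower (0.598%) and 51 higher (0.424%) in FP-KO lungs, with 1770 at an unadjusted p under 0.05. Of these 123, 122 were among the 376, which is 99.2% of the shorter list and 32.4% of the longer. All 375 of the 376 that were still tested kept the sign of their interaction, and a median of 88.5% of its size was left. These genes were called on the same arrays with No. 2 added, so the kept signs are no independent support. The count moved by over 1.5 times without several other mice too: it was 613 without FP-KO Day 14 No. 1, 179, 137 and 208 without FP-KO Day 0 No. 1, 2 and 4, 152, 169, 219 and 575 without WT Day 14 No. 2, 3, 4 and 5, and 142 and 219 without WT Day 0 No. 1 and 4. Within the second Day 14 set alone, with 2 mice of each genotype, 0 genes passed by limma and 1240 had an unadjusted p under 0.05, against 651 that passed in the first set with No. 2 and 15 in the first set without it.

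**Figure D1:**
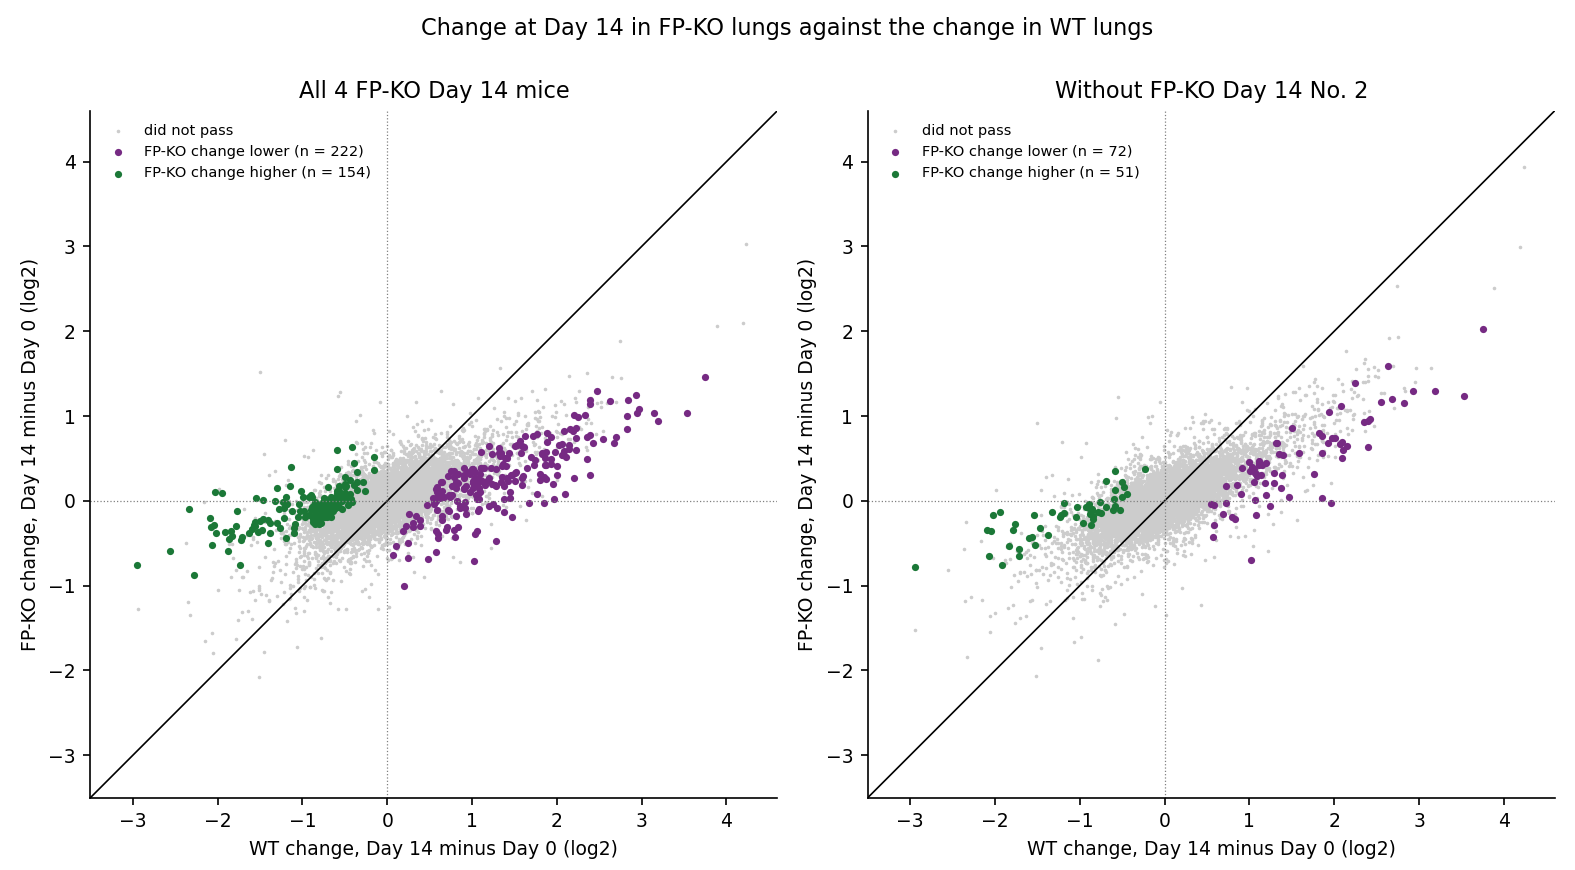
Log2 change between Day 14 and Day 0 in FP-KO lungs (vertical axis) against WT lungs (horizontal axis), one point per tested gene, with all 4 FP-KO Day 14 mice on the left and without No. 2 on the right; coloured points passed on the interaction. On the left 222 genes are lower and 154 higher in FP-KO, and on the right 72 and 51, most of them between the horizontal line of no FP-KO change and the diagonal of equal change.

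The size of the response was also read mouse by mouse over 318 genes whose change averaged over both genotypes passed and reached a size of 1 on the log2 scale (226 rose and 92 fell). The averages use the same mice, so these values are a description. Of the 318, 189 had an FP-KO change under 50% of the WT change, 127 between 50 and 150%, 2 above 150% and 0 of opposite sign, and regressing FP-KO changes on WT changes gave a slope of 0.46. Taken singly, FP-KO No. 1 had a slope of 0.713, No. 2 of 0.232, No. 3 of 0.437 and No. 4 of 0.468, against 1.00, 1.16, 1.13, 0.881 and 0.776 for WT No. 1 to 5, each WT mouse set against the mean change of the other WT mice. All 4 FP-KO mice lay below all 5 WT mice, No. 2 lowest. A WT mouse and its reference change subtract the same WT Day 0 mean, which can raise WT slopes. FP-KO mice subtract their own Day 0 mean, so part of this gap may be built in. Without No. 2, 375 genes met the same rule, of which 154 were under 50%, 216 between 50 and 150%, 5 above 150% and 0 of opposite sign, the slope was 0.53, and the median share was 54.2% for rises and for falls.

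**Figure D2:**
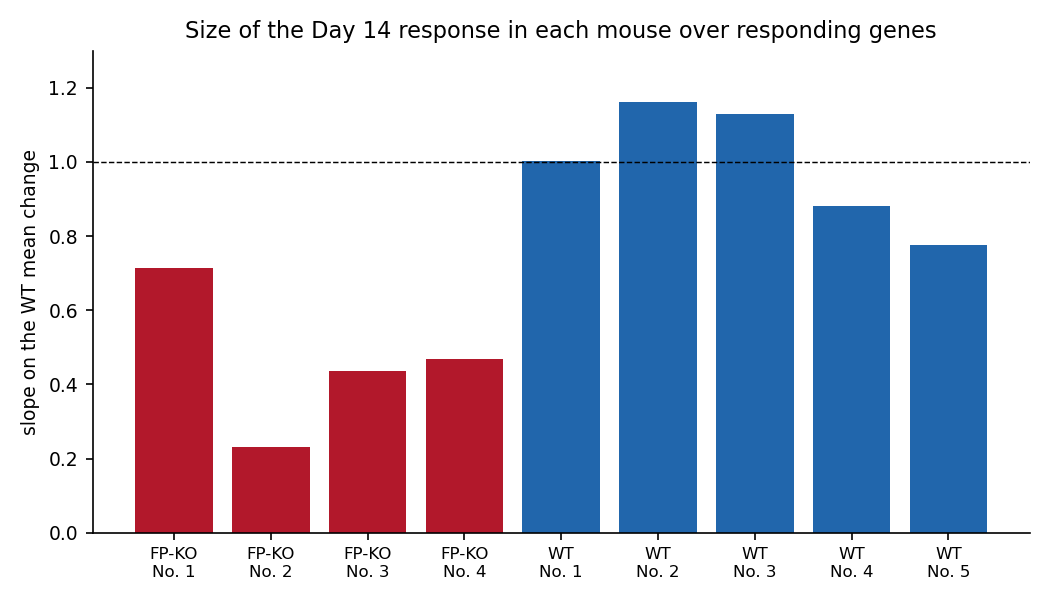
Slope of each Day 14 mouse's log2 changes on the WT mean change over the 318 responding genes (vertical axis, 1 is the full WT response), one bar per mouse, FP-KO on the left and WT on the right. The 4 FP-KO mice reach 0.232 to 0.713 and the 5 WT mice 0.776 to 1.16.

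Genes of the extracellular matrix rose in WT lungs and rose less, or without passing, in FP-KO lungs. Of 15 tested fibrillar and other interstitial collagens, 8 rose in FP-KO and 15 in WT lungs, none fell, and 9 passed as lower on the interaction (Col18a1, Col1a1, Col1a2, Col3a1, Col5a1, Col5a2, Col5a3, Col6a2 and Col6a3), against 1.84% of all genes. Their median change was 0.57 in FP-KO and 1.24 in WT lungs, and their median interaction was -0.78, beside 0.01 over all tested genes. Without No. 2, 12 of the 15 rose in FP-KO lungs (3.19% of all genes did), 2 passed as lower (Col1a1 and Col5a2), and the median interaction was -0.65. The collagen medians were -0.93 in the first Day 14 set, -0.58 in that set without No. 2 and -0.59 in the second set.

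Col1a1, the main chain of type I collagen, read 5921, 3298, 2854 and 2838 in FP-KO Day 14 lungs and 1548, 1603, 1249 and 1578 in FP-KO Day 0 lungs. Its WT values were 10498, 12296, 9943, 5835 and 4887 on Day 14 and 1011, 1053, 1250.0 and 998 on Day 0. Each genotype's Day 14 lungs lay above its Day 0 lungs, and the FP-KO and WT Day 14 ranges overlapped only through FP-KO No. 1, which exceeded WT No. 4 and 5. The change was 1.25 in FP-KO and 2.93 in WT lungs, an interaction of -1.68 ± 0.34 (adjusted p = 0.0158) that was -1.64 without No. 2 (adjusted p = 0.0362). Col3a1, the collagen that accompanies type I in the lung interstitium, had changes of 0.66 in FP-KO and 1.53 in WT lungs and an interaction of -0.87 ± 0.21 (adjusted p = 0.0317, and 0.0716 without No. 2).

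Among 19 elastic fibre and matricellular genes, 6 rose in FP-KO lungs and 19 in WT lungs, and 5 passed as lower on the interaction: Fn1 (fibronectin), Ltbp2 (a latent TGF-β binding family protein of elastic fibres), Thbs1 and Thbs4 (thrombospondins) and Tnc. Without No. 2, 9 rose in FP-KO lungs, and Tnc and Thbs4 alone passed as lower, with an adjusted p of 0.0603 for Fn1, 0.0617 for Ltbp2 and 0.0852 for Thbs1. Tenascin C, the product of Tnc, is laid down in injured tissue. Tnc read 966, 218, 999 and 1102 in FP-KO Day 14 lungs and 329, 316, 233 and 165 in FP-KO Day 0 lungs, against 2341, 3179, 3378, 3179 and 2281 in WT Day 14 lungs and 262, 296, 166 and 153 in WT Day 0 lungs. FP-KO No. 2 stayed within the Day 0 range, the other 3 FP-KO mice lay above it, and every WT Day 14 value exceeded every FP-KO one. Its change was 1.47 in FP-KO and 3.75 in WT lungs, an interaction of -2.28 ± 0.53 (adjusted p = 0.0256) and -1.73 without No. 2 (adjusted p = 0.0366). Thbs4 was at the floor in all 4 WT Day 0 lungs, in 3 of 4 FP-KO Day 0 lungs and in FP-KO Day 14 No. 2, so the sizes of its fitted changes depend on the floor. On Day 14 it read 65.8, 24.3, 73.6 and 61.1 in FP-KO and 162, 382, 373, 179.9 and 129.7 in WT lungs, with no overlap. Eln (elastin), named after its values were seen, rose in both genotypes, by 2.06 in FP-KO and 3.88 in WT lungs, and its interaction of -1.82 ± 0.53 did not pass (adjusted p = 0.0583, and 0.144 without No. 2).

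Matrix-modifying genes followed the same order. Of 14 tested proteases and inhibitors, 3 rose in FP-KO and 10 in WT lungs, and 3 were lower on the interaction: Timp1 (an inhibitor of matrix metalloproteinases), Mmp14 (a membrane-bound collagenase) and Mmp8 (the neutrophil collagenase). Without No. 2, 8 rose in FP-KO lungs, and Mmp8 did not pass on the interaction (-1.50 over all mice, -1.37 without No. 2, adjusted p = 0.109). Timp1 read 1012, 378, 769 and 811 in FP-KO Day 14 lungs and 442, 431, 356 and 333 in FP-KO Day 0 lungs, against 1435, 2544, 2651, 2376 and 1837 in WT Day 14 lungs and 310.4, 347, 276 and 267 in WT Day 0 lungs. The WT Day 14 lungs lay above all FP-KO lungs of Day 0 and Day 14, and FP-KO No. 2 was again within the Day 0 values. The interaction of Timp1 was -1.97 ± 0.38 (adjusted p = 0.0152), with changes of 0.85 in FP-KO and 2.83 in WT lungs, and it was -1.68 without No. 2 (adjusted p = 0.0324). Mmp14 had changes of 0.56 in FP-KO and 1.82 in WT lungs, an interaction of -1.26 ± 0.24 (adjusted p = 0.0149, and 0.0197 without No. 2). Of 13 collagen folding and crosslinking genes, Bmp1 (a procollagen C-proteinase) and Loxl1 (a lysyl oxidase) were lower, at -0.79 and -0.74, and Loxl1 alone passed without No. 2. Of 9 proteoglycans, Bgn (biglycan, -0.40) and Fmod (fibromodulin, -0.98) were lower, and of 13 basement membrane genes Col4a1 (a type IV collagen chain, -0.60), none of which passed without No. 2.

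In the TGF-β and activin list, 1 of 16 genes passed, Smad6, an inhibitor of bone morphogenetic protein signalling, whose change of -0.32 in FP-KO and -1.10 in WT lungs gave an interaction of 0.78 ± 0.21 (adjusted p = 0.0427, and 0.0852 without No. 2). Of 11 contractile genes 1 passed, Tpm1 (a tropomyosin, -0.54, adjusted p = 0.0724 without No. 2), and of 9 resident fibroblast genes 1, Itga8 (an integrin subunit of lung fibroblasts, 0.52, adjusted p = 0.118 without No. 2). As 3.12% of all genes passed, a single call says little about lists of this size. Whole lung was measured, so fewer cells of a type and less RNA per cell cannot be told apart in any of these groups.

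Genes of the cell cycle rose in WT lungs at Day 14 and none of them passed in FP-KO lungs. Of 24 tested, 0 rose in FP-KO lungs by limma (9 at an unadjusted p under 0.05) and 21 in WT lungs, and 13 passed as lower on the interaction: Aurkb, Birc5, Bub1, Bub1b, Ccnb2, Cdc20, Cdk1, Cenpa, E2f1, Mcm3, Mki67, Plk1 and Rrm2. Among all tested genes, 1.85% rose in FP-KO and 19.1% in WT lungs, and 1.84% were lower on the interaction. The median change of the list was 0.30 in FP-KO and 1.55 in WT lungs, and the median interaction was -1.24. Without No. 2, 5 rose in FP-KO lungs, 8 passed as lower, and the median interaction was -1.03. The medians were -1.29 in the first Day 14 set, -0.89 in that set without No. 2 and -0.99 in the second set. Summed over the 24 genes, intensity was 11083 to 16976 in FP-KO Day 14 lungs, 11083 being No. 2, and 12054 to 15397 in FP-KO Day 0 lungs, against 21718 to 26506 in WT Day 14 lungs and 11981 to 13396 in WT Day 0 lungs. On Day 7, which is outside the interaction contrast, the sums were 21600 to 34763 in FP-KO and 27614 to 33374 in WT lungs. The 2 genotypes thus overlapped then and did not on Day 14.

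Plk1, a kinase of mitotic entry, read 196, 105, 88.8 and 109 in FP-KO Day 14 lungs and 152, 162, 93.2 and 93.7 in FP-KO Day 0 lungs. The WT values were 261, 368, 342, 245 and 221 on Day 14 and 70.1, 72.0, 99.3 and 74.7 on Day 0. All FP-KO Day 14 values lay below all WT Day 14 values and overlapped their own Day 0. The FP-KO change was -0.03 and the WT change 1.85, an interaction of -1.88 ± 0.37 (adjusted p = 0.0152) and -1.82 without No. 2 (adjusted p = 0.0350). Mki67, which encodes the proliferation antigen Ki-67, read 745, 421, 661 and 632 in FP-KO Day 14 lungs and 555, 444, 185 and 337 in FP-KO Day 0 lungs. In WT lungs Mki67 was 1282, 1273, 1360.4, 1290.3 and 1099.7 on Day 14 and 254, 195, 253 and 260.4 on Day 0. The 5 WT Day 14 values were close together and above all others of Day 0 and Day 14. The interaction of Mki67 was -1.62 ± 0.33 (adjusted p = 0.0158, and 0.0374 without No. 2). Nuf2, a kinetochore protein outside the list and among the largest interactions, gave -2.09 ± 0.36 (adjusted p = 0.00982), with changes of 0.30 in FP-KO and 2.39 in WT lungs, and -1.76 without No. 2 (adjusted p = 0.0193). Foxm1, a transcription factor of the G2 phase, and Mcm2, a subunit of the replicative helicase, had interactions of -0.04 and -0.11 that did not pass, with or without No. 2.

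Cell cycle promoters often hold a short element named CHR, TTTGAA, and CCAAT boxes. In windows of 300 bases around the start of each gene, RefSeq sequence of GRCm38.p6, 12 of the 13 called cell cycle genes had a window, of which 7 held TTTGAA on either strand, against 20.2% of 27025 genes, and 10 held CCAAT, against 41.1%. A match is a description of letters and no evidence of binding. List members that were not called were not counted, so these shares do not set called genes apart from other cell cycle genes. The windows of Plk1 (chr7:122159185-122159484, plus strand) and Cdc20 (chr4:118437294-118437593, minus strand) are shown as examples from this gene group, with the TTTGAA match in capitals.
Plk1: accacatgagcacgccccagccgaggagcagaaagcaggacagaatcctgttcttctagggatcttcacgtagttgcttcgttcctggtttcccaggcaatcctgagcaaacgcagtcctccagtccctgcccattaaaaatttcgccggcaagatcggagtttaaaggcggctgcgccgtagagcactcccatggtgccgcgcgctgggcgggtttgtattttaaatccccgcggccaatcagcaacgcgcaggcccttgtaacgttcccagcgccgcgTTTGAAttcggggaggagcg
Cdc20: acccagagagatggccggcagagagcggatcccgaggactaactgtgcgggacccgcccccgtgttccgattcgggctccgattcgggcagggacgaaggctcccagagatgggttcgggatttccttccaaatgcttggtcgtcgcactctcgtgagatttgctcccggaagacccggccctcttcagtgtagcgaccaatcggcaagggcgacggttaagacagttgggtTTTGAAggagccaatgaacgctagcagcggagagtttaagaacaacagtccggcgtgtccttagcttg
In Plk1 the match begins 30 bases after the annotated start and in Cdc20 18 bases before it. Cdc20, an activator of the anaphase-promoting complex, had changes of 0.49 in FP-KO and 1.93 in WT lungs and an interaction of -1.44 ± 0.29 (adjusted p = 0.0160, and 0.0374 without No. 2).

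Macrophage genes rose in both genotypes and less in FP-KO lungs. Of 21 tested, 8 rose in FP-KO and 15 in WT lungs, and 6 were lower on the interaction: C1qa, C1qb and C1qc (the chains of complement C1q), Fcgr1 (the high-affinity IgG receptor), Lgmn (a lysosomal protease) and Msr1 (a scavenger receptor). Over all tested genes, 1.85% rose in FP-KO and 19.1% in WT lungs, and 1.84% were lower on the interaction. The median change of the list was 0.50 in FP-KO and 1.39 in WT lungs, with a median interaction of -0.83. Without No. 2, 13 rose in FP-KO lungs, 2 were lower on the interaction (C1qb and Fcgr1), and the median was -0.37. Within the first Day 14 set the median was -1.07, without No. 2 in that set -0.43, and in the second set -0.36. Summed macrophage marker intensity was 65363 in FP-KO Day 14 No. 2 and 80430 to 90187 in the other 3, with 58089 to 67610 in FP-KO Day 0 lungs, against 93811 to 108130 in WT Day 14 lungs and 59152 to 63324 in WT Day 0 lungs.

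C1qb read 4226, 1160.0, 3422 and 3315 in FP-KO Day 14 lungs and 1188, 1250.2, 1191 and 1211 in FP-KO Day 0 lungs, against 5931, 7476, 6370.1, 5005 and 4801 in WT Day 14 lungs and 747, 1179.9, 986 and 907 in WT Day 0 lungs. FP-KO No. 2 lay among the Day 0 lungs, and the other 3 lay between the Day 0 lungs and the WT Day 14 lungs. The change was 1.17 in FP-KO and 2.63 in WT lungs, and the interaction -1.46 ± 0.38 (adjusted p = 0.0375), or -1.05 without No. 2 (adjusted p = 0.0471). Retnla, a secreted marker of alternative activation, was the 1 of 8 genes of that list to pass, at -1.39 ± 0.36 (adjusted p = 0.0378, and 0.0896 without No. 2). C3ar1, the receptor of the complement fragment C3a, gave -1.37 (adjusted p = 0.0278, and 0.0638 without No. 2) and Saa3, an acute phase protein, -1.92 (adjusted p = 0.0485, and 0.127 without No. 2). Of 11 monocyte chemokines and receptors, 1 rose in FP-KO lungs (Ccl6) and 9 in WT lungs, and none passed on the interaction by limma (9 were lower at an unadjusted p under 0.05). The median interaction was -1.28, or -0.96 without No. 2. Ccl2, the ligand that draws monocytes through Ccr2, had changes of 0.64 in FP-KO and 1.79 in WT lungs and an interaction of -1.16 (adjusted p = 0.118, and 0.220 without No. 2). Among the 13 genes of dendritic cells and MHC class II presentation, 0 rose in FP-KO and 10 in WT lungs, and none passed on the interaction by limma (6 were lower at an unadjusted p under 0.05).

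Interferon-stimulated genes rose in WT lungs and none rose in FP-KO lungs. Of 15 tested, 0 rose by limma (3 at an unadjusted p under 0.05) and 1 fell in FP-KO lungs (Gbp2, a guanylate-binding GTPase), 11 rose and 1 fell in WT lungs, and 6 were lower on the interaction: Cxcl10, Ifit1, Iigp1, Oas1a, Oas2 and Oasl2. Among all tested genes, 19.1% rose in WT lungs and 1.84% were lower on the interaction. The median change of the list was 0.03 in FP-KO and 0.92 in WT lungs. Its median interaction was -0.93, or -0.83 without No. 2, when 3 passed (Cxcl10, Iigp1 and Oas1a). The medians were -1.12 in the first Day 14 set, -0.78 in that set without No. 2 and -0.63 in the second set. The Day 0 lungs bear on the result here, as in other called genes described below. Summed intensity was 12112 to 14469 in FP-KO Day 14 lungs and 14204 to 15938 in FP-KO Day 0 lungs. In WT lungs it was 15959 to 18782 on Day 14 and 11025 to 12304 on Day 0.

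Cxcl10, a chemokine that attracts CXCR3-bearing lymphocytes, read 246, 94.2, 224 and 236 in FP-KO Day 14 lungs and 97.2, 186, 119.6 and 180.5 in FP-KO Day 0 lungs, against 389, 451, 429.8, 462 and 433 in WT Day 14 lungs and 81.8, 153, 111 and 96.4 in WT Day 0 lungs. The WT Day 14 values stood clear of all others of Day 0 and Day 14, and FP-KO No. 2 was the lowest Day 14 value. Its interaction was -1.59 ± 0.36 (adjusted p = 0.0231) with changes of 0.41 in FP-KO and 2.01 in WT lungs, and -1.27 without No. 2 (adjusted p = 0.0423). Oas1a, an antiviral oligoadenylate synthetase, read 767, 503, 992 and 869.9 in FP-KO Day 14 lungs and 747, 839, 716 and 693 in FP-KO Day 0 lungs, against 992, 1169, 1274, 967 and 1078 in WT Day 14 lungs and 507, 617, 465 and 524 in WT Day 0 lungs. All FP-KO Day 0 values of Oas1a lay above all WT Day 0 values, a Day 0 difference of 0.51 that did not pass, and the Day 14 ranges overlapped. Its interaction of -1.03 ± 0.23 (adjusted p = 0.0197, and 0.0374 without No. 2) therefore holds a part from Day 0 and a part from Day 14. Iigp1, an immunity-related GTPase, had changes of -0.31 in FP-KO and 0.83 in WT lungs and an interaction of -1.14 ± 0.22 (adjusted p = 0.0152, and 0.0350 without No. 2).

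The interferon-stimulated response element, GAAA followed by any 2 bases and GAAA again, is bound by interferon regulatory factors. Of the 6 called interferon-stimulated genes 4 had a promoter window, and 3 held this motif on either strand (Cxcl10, Ifit1 and Oas1a), against 3.99% of 27025 genes. List members that were not called were not counted here either. The windows of Oas1a (chr5:120907476-120907775, minus strand) and Ifit1 (chr19:34640639-34640938, plus strand), an antiviral protein with tetratricopeptide repeats, are printed to show the matches in capitals.
Oas1a: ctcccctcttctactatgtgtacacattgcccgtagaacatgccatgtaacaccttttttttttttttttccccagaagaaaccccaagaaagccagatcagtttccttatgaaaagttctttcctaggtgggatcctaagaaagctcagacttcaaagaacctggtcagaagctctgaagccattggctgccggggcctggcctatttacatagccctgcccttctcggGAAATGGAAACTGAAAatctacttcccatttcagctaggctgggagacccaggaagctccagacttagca
Ifit1: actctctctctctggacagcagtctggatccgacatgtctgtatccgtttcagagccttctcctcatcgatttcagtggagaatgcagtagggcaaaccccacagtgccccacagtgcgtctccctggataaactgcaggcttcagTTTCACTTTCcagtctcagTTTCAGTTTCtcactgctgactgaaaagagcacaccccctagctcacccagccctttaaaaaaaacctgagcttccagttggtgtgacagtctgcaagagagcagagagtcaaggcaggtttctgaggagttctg
Oas1a holds 2 overlapping matches, which start 20 and 14 bases before the annotated start, and Ifit1 holds 2 on the other strand, where the letters read as the reverse complement. Ifit1 had changes of 0.32 in FP-KO and 1.09 in WT lungs and an interaction of -0.78 ± 0.20 (adjusted p = 0.0381, and 0.0926 without No. 2).

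Of 13 prostanoid enzymes and receptors, 0 passed in FP-KO lungs over time by limma (4 rose at an unadjusted p under 0.05), 6 rose and 1 fell in WT lungs, and 1 passed on the interaction. This was Ptger4, the EP4 receptor of prostaglandin E2. It read 969, 655, 1056 and 1147 in FP-KO Day 14 lungs and 921, 739, 781 and 682 in FP-KO Day 0 lungs, against 1504, 1586, 1619.6, 1484 and 1359.6 in WT Day 14 lungs and 657, 811, 548 and 641 in WT Day 0 lungs. The WT Day 14 lungs stood above all other lungs of Day 0 and Day 14. The interaction of Ptger4 was -0.93 ± 0.21 (adjusted p = 0.0207), or -0.75 without No. 2 (adjusted p = 0.0426). In the insulin-like growth factor axis, Igf1, the growth factor, rose in both genotypes, by 1.29 in FP-KO and 2.47 in WT lungs, with an interaction of -1.18 ± 0.33 (adjusted p = 0.0499, and 0.117 without No. 2). Igfbp6, a binding protein for IGF2, went the other way, with changes of -0.47 in FP-KO and -1.72 in WT lungs and an interaction of 1.26 ± 0.27 (adjusted p = 0.0181, and 0.0426 without No. 2). Among the largest interactions were also Chl1, a neural cell adhesion molecule of the L1 family, at -2.50 ± 0.51 (adjusted p = 0.0158, and 0.0374 without No. 2; 1 FP-KO and 2 WT Day 0 lungs were at the floor, so the size depends on it), and Fgfbp1, a carrier that releases fibroblast growth factors from the matrix, at 1.55 ± 0.22 (adjusted p = 0.0038, and 0.0103 without No. 2). Fgfbp1 read 364, 547, 419 and 358 in FP-KO Day 14 lungs and 629, 648, 577 and 530.5 in FP-KO Day 0 lungs, against 198, 222, 191, 181 and 213 in WT Day 14 lungs and 937, 1117, 603 and 797 in WT Day 0 lungs. Each WT Day 14 value lay below every FP-KO Day 14 value.

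**Figure D3:**
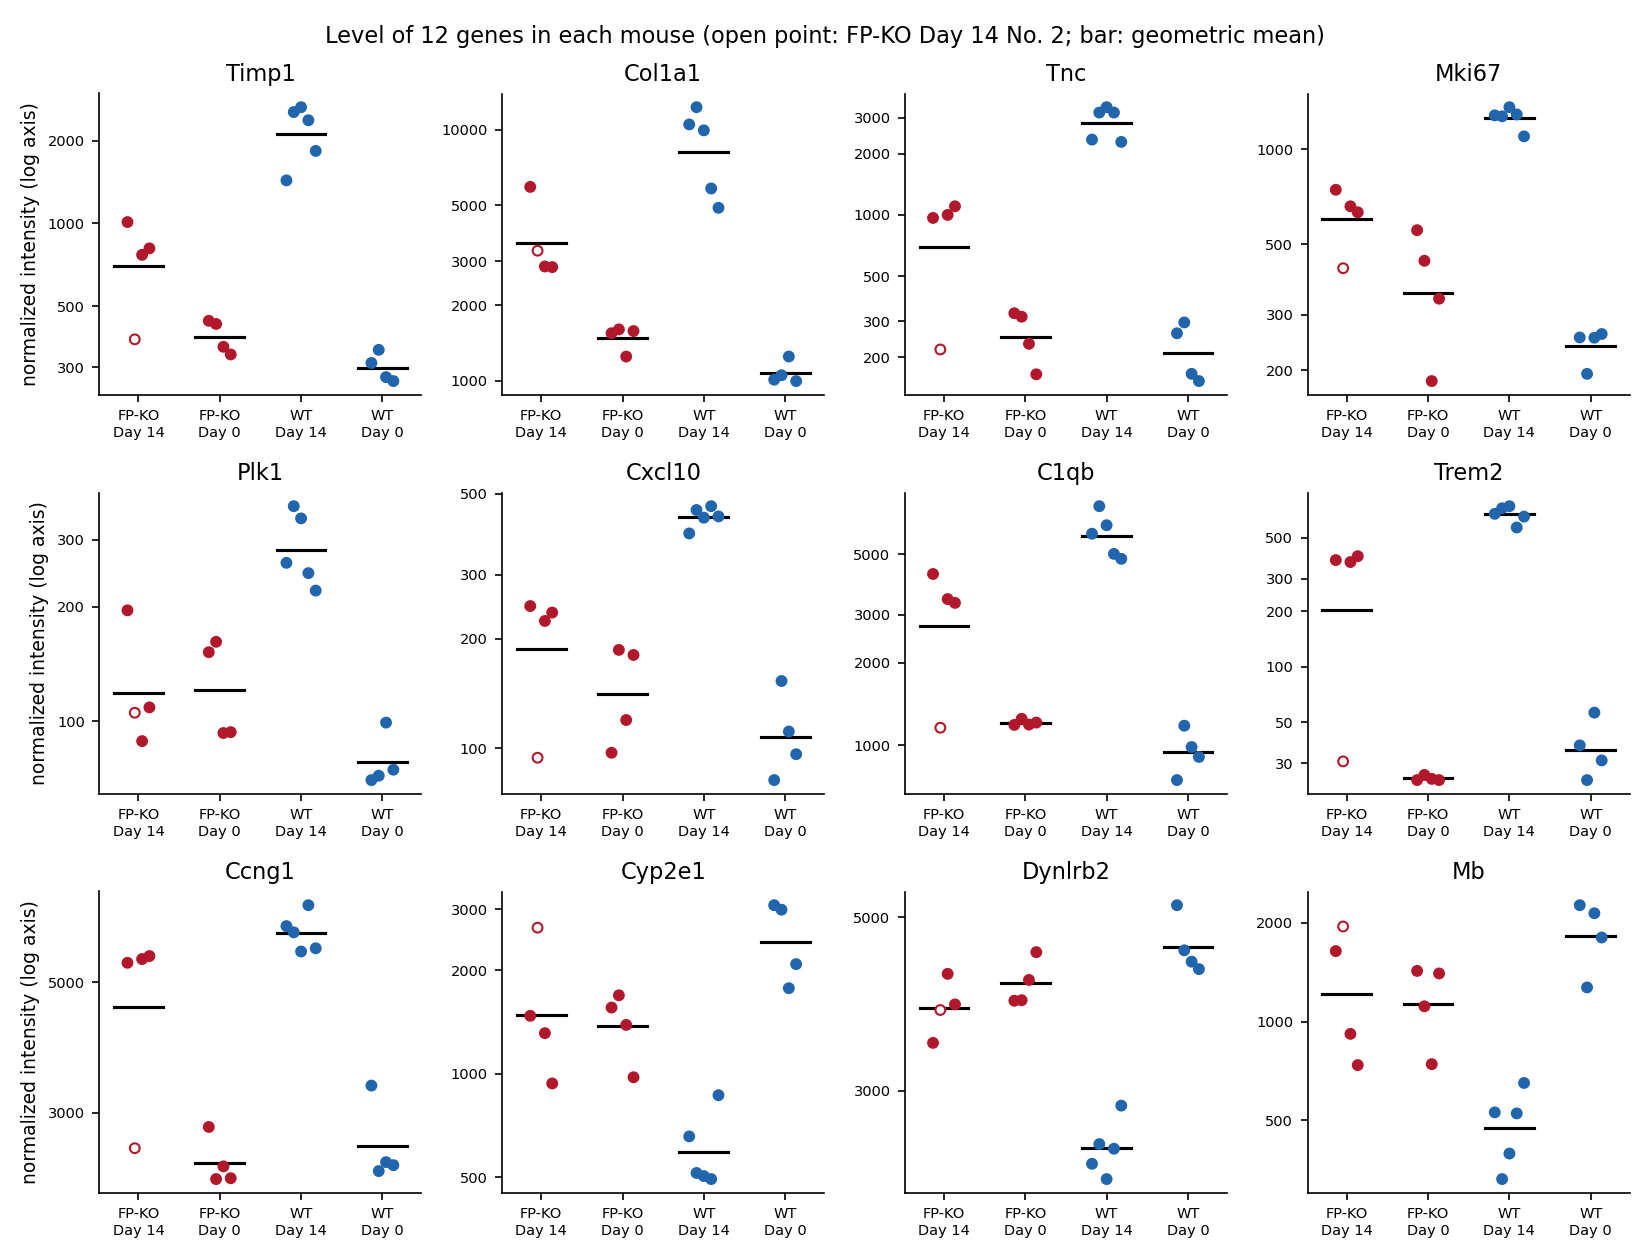
Array intensity (log axis) of 12 genes in each lung, with FP-KO Day 14, FP-KO Day 0, WT Day 14 and WT Day 0 from left to right; each point is a mouse, the open point is FP-KO Day 14 No. 2 and the bar is the geometric mean. In Timp1, Tnc, Mki67, Plk1, Cxcl10, C1qb, Trem2 and Ccng1 every WT Day 14 point is above every FP-KO Day 14 point. In Cyp2e1, Dynlrb2 and Mb every WT Day 14 point is below every FP-KO one.

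Most genes of xenobiotic metabolism fell in WT lungs, and none passed as falling in FP-KO lungs. Of 11 xenobiotic genes, 1 rose and 0 fell in FP-KO lungs, 0 rose and 8 fell in WT lungs, and 7 passed as higher on the interaction (Aox3, Ces1d, Cyp2b10, Cyp2e1, Cyp2s1, Cyp4b1 and Fmo2). Their median change was -0.04 in FP-KO and -1.22 in WT lungs, and 2 of the 10 still tested passed without No. 2 (Cyp2b10 and Cyp2e1). Over all tested genes, 19.5% fell in WT lungs and 1.28% were higher on the interaction. Cyp2e1, a cytochrome P450 that oxidises small solvents, read 1473, 2656, 1312 and 937 in FP-KO Day 14 lungs and 1557, 1689.6, 1386 and 977 in FP-KO Day 0 lungs, against 658, 515, 504, 494 and 866 in WT Day 14 lungs and 3086, 2995, 1772 and 2081 in WT Day 0 lungs. FP-KO No. 2 was the highest Day 14 value, and all FP-KO Day 14 lungs lay above all WT Day 14 lungs. The interaction was 2.14 ± 0.41 (adjusted p = 0.0152), with changes of 0.11 in FP-KO and -2.03 in WT lungs, and 1.86 without No. 2 (adjusted p = 0.0335).

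The glutathione and NRF2 genes did not move one way: of 11 tested, 0 passed in FP-KO lungs over time by limma (2 rose at an unadjusted p under 0.05), 4 rose and 4 fell in WT lungs, and the median change was 0.11 in FP-KO and 0.03 in WT lungs. On the interaction 3 were higher, the glutathione transferases Gsta3, Gsta4 and Gstm1. Without No. 2, Gsta3 alone passed, with an adjusted p of 0.0752 for Gstm1, and Gsta4 did not pass either. Gsta3 read 4099.5, 5835, 3904 and 4343 in FP-KO Day 14 lungs and 4315, 4263, 5114 and 4329 in FP-KO Day 0 lungs, against 1878, 1653, 2178, 1616 and 2639 in WT Day 14 lungs and 4752, 5361, 3926 and 5757 in WT Day 0 lungs. The FP-KO lungs of Day 0 and Day 14 overlapped, and the WT Day 14 lungs lay below all others of these days. The interaction of Gsta3 was 1.32 ± 0.24 (adjusted p = 0.0129, and 0.0324 without No. 2).

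Airway genes fell in WT lungs as well. Over all tested genes, 19.1% rose and 19.5% fell in WT lungs, and 1.28% were higher on the interaction. Of 10 ciliated cell genes, 0 passed in FP-KO lungs by limma (1 in each direction at an unadjusted p under 0.05), 5 fell in WT lungs, and 3 were higher on the interaction, with a median change of 0.13 in FP-KO and -0.45 in WT lungs. Dynlrb2, a dynein light chain, read 3455, 3806, 4234 and 3869.7 in FP-KO Day 14 lungs and 3912, 3917, 4159 and 4513 in FP-KO Day 0 lungs, against 2419, 2563, 2312, 2529 and 2872 in WT Day 14 lungs and 5184, 4538, 4389 and 4293 in WT Day 0 lungs. The WT Day 14 lungs lay below all others of Day 0 and Day 14 without overlap. The interaction of 0.75 ± 0.13 (adjusted p = 0.00982) was 0.76 without No. 2 (adjusted p = 0.0199). Tekt1, a structural protein of ciliary microtubules, gave 0.69 ± 0.16 (adjusted p = 0.0256, and 0.0426 without No. 2), and Dnah5 gave 1.05 ± 0.26 (adjusted p = 0.0307, and 0.0660 without No. 2). Summed ciliated intensity was 12392 to 15114 in FP-KO Day 14 lungs and 13691 to 16123 in FP-KO Day 0 lungs, against 8175 to 10008 in WT Day 14 lungs and 14694 to 15986 in WT Day 0 lungs. Of 10 club and goblet genes 1 passed, Aldh1a1, a retinaldehyde dehydrogenase, at 0.71 ± 0.13 (adjusted p = 0.00982, and 0.0199 without No. 2), with changes of 0.11 in FP-KO and -0.59 in WT lungs. Of 19 endothelial genes 0 passed in FP-KO lungs over time by limma (3 fell at an unadjusted p under 0.05), 2 rose and 8 fell in WT lungs, and 2 were higher on the interaction: Ednrb (the endothelin B receptor, 0.91) and Ptprb (a vascular receptor phosphatase, 0.53), neither of which passed without No. 2. None of 10 alveolar type 1 and 10 alveolar type 2 genes passed on the interaction by limma (1 and 0 at an unadjusted p under 0.05), and of 13 transitional epithelium genes Ereg, an EGF receptor ligand, did at -1.88 ± 0.51 (adjusted p = 0.0445, and 0.0876 without No. 2), with 4 arrays at the floor.

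Cardiac and skeletal muscle genes gave the highest share of calls of any list. Whether their RNA came from the lung itself or from tissue taken along with it was not tested. Of 14 tested, 0 passed in FP-KO lungs over time by limma (1 fell at an unadjusted p under 0.05), 14 fell in WT lungs, and 11 were higher on the interaction, 7 of them without No. 2. Among all tested genes, 19.5% fell in WT lungs and 1.28% were higher on the interaction. The median change of the list was -0.20 in FP-KO and -1.47 in WT lungs. Its median interactions were 1.25 over all mice, 1.11 without No. 2, 1.48 in the first Day 14 set and 0.98 in the second. Mb, muscle myoglobin, read 1639, 1948, 917 and 737 in FP-KO Day 14 lungs and 1427, 1113, 742 and 1402 in FP-KO Day 0 lungs, against 529, 331, 396, 525 and 650.2 in WT Day 14 lungs and 2262, 1271, 2138 and 1803 in WT Day 0 lungs. All WT Day 14 values were below all others of Day 0 and Day 14. The interaction of Mb was 2.04 ± 0.44 (adjusted p = 0.0193, and 0.0485 without No. 2). The summed muscle intensity was 17624 to 31162 in FP-KO Day 14 lungs, 31162 being No. 2, and 19993 to 28898 in FP-KO Day 0 lungs, against 11636 to 14800 in WT Day 14 lungs and 28489 to 37393 in WT Day 0 lungs. Adipocyte genes moved in the same direction, with 2 of 8 higher on the interaction (Adipoq, which encodes adiponectin, at 1.97, and Retn, which encodes resistin, at 1.42), none without No. 2. Their sums were 4317 to 10625 in FP-KO Day 14 lungs and 6137 to 9134 in FP-KO Day 0 lungs, against 3415 to 4672 in WT Day 14 lungs and 6814 to 16094 in WT Day 0 lungs. How much muscle and fat each sample held, and its part in the other gene groups, was not tested.

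**Figure D4:**
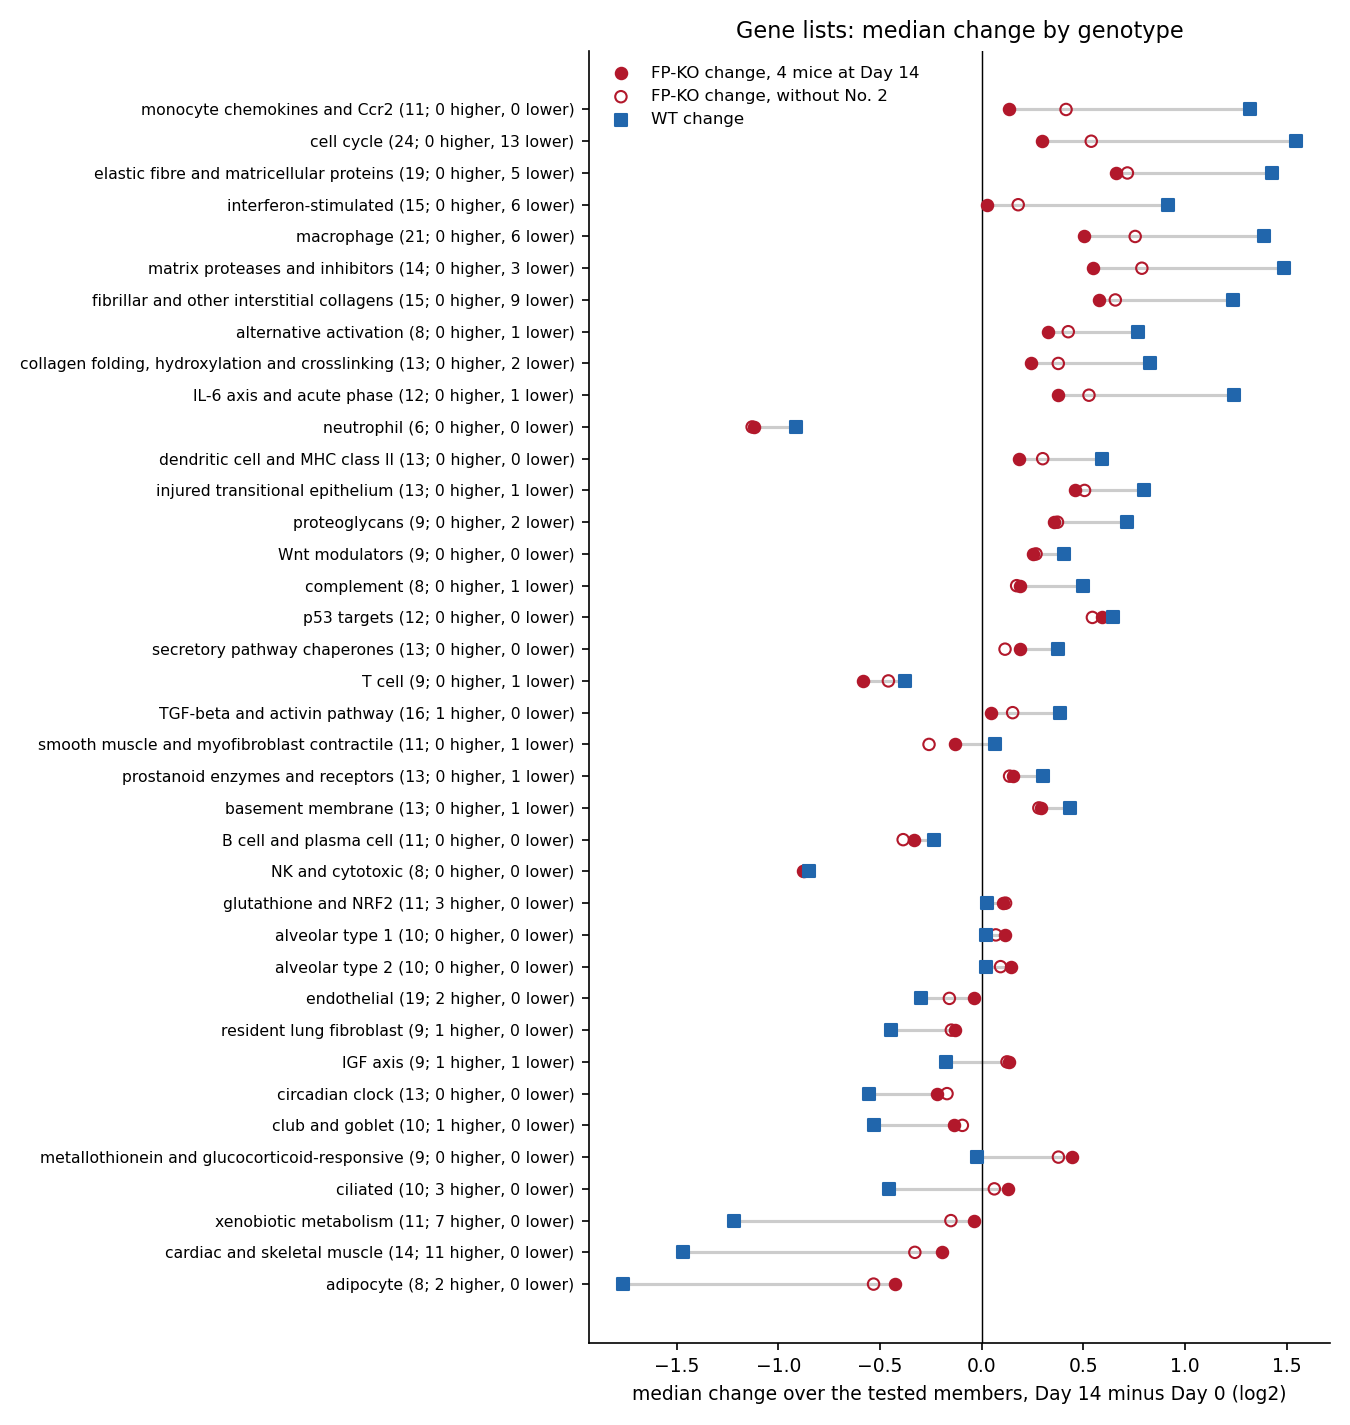
Median log2 change between Day 14 and Day 0 for each gene list, FP-KO as filled circles (open without No. 2) and WT as squares (horizontal axis), with the numbers of tested genes and of genes higher and lower on the interaction beside each list name. Cell cycle, collagen and interferon-stimulated genes have medians of 0.30, 0.57 and 0.03 in FP-KO and 1.55, 1.24 and 0.92 in WT lungs, and muscle genes -0.20 in FP-KO and -1.47 in WT lungs.

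Some genes changed in both genotypes without passing on the interaction. A gene was called kept where both changes passed in the same direction and the unadjusted 95% interval of the interaction lay within 50% of the size of the mean change, either way. With all mice 0 genes met this rule, and without No. 2 it was met by 7: Trem2, Gpnmb, Ccng1, Lcn2, Igfbp2, Ckmt1 and Tox3. Trem2, a lipid receptor of macrophages in injured tissue, read 378, 30.7, 369 and 397 in FP-KO Day 14 lungs and 24.3, 25.9, 24.7 and 24.3 in FP-KO Day 0 lungs, against 673, 722, 741, 568 and 650.5 in WT Day 14 lungs and 37.5, 24.3, 56.4 and 31.1 in WT Day 0 lungs. Its interaction was -1.20 ± 0.73 over all mice (adjusted p = 0.406) and -0.29 ± 0.37 without No. 2 (adjusted p = 0.776), which alone of the FP-KO Day 14 lungs stayed near Day 0. With 3 Day 0 arrays at the floor and others near it these sizes depend on the floor, and every FP-KO Day 14 value lay below every WT Day 14 value, so the kept call of Trem2 is not firm. Gpnmb, a glycoprotein of lipid-laden macrophages, gave -0.86 ± 0.53 over all mice and -0.21 ± 0.27 without No. 2, and neither passed.

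Ccng1, a cyclin induced by p53, read 5398, 2608, 5477 and 5542 in FP-KO Day 14 lungs and 2835, 2311, 2429 and 2319 in FP-KO Day 0 lungs, against 6233, 6083, 5642, 6766 and 5713 in WT Day 14 lungs and 3335, 2384, 2469 and 2441 in WT Day 0 lungs. Apart from FP-KO No. 2, each genotype's Day 14 lungs lay well above its Day 0 lungs. Every FP-KO Day 14 value still lay below every WT Day 14 value, at most 5542 against at least 5642. The change was 0.88 in FP-KO and 1.21 in WT lungs, the interaction -0.32 ± 0.25 (adjusted p = 0.548) and -0.06 ± 0.18 without No. 2 (adjusted p = 0.928). Of 12 p53 targets, 6 rose in each genotype (Ccng1, Cdkn1a, Eda2r, Phlda3, Sesn2 and Zmat3 in FP-KO lungs) and 2 fell in WT lungs. None passed on the interaction by limma (3 at an unadjusted p under 0.05). The median change was 0.59 in FP-KO and 0.65 in WT lungs, and the median interaction -0.23, or -0.11 without No. 2. On Day 14 every FP-KO value of Eda2r lay below every WT value, while those of Cdkn1a overlapped. Cdkn1a, the cell cycle inhibitor p21, changed by 1.47 in FP-KO and 2.14 in WT lungs, with an interaction of -0.66 ± 0.43 (adjusted p = 0.442, and 0.735 without No. 2). Lcn2, an iron-sequestering protein of injured epithelium, changed by 1.18 in FP-KO and 1.77 in WT lungs, with an interaction of -0.58 ± 0.23 (adjusted p = 0.169), or -0.37 ± 0.18 without No. 2 (adjusted p = 0.373). Tox3, a DNA-binding protein of the HMG box family, fell in both genotypes, by 0.73 on the log2 scale in FP-KO and by 0.92 in WT lungs, with an interaction of 0.18 ± 0.21 that did not pass, nor did it without No. 2 (adjusted p = 0.994).

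Natural killer and cytotoxic genes fell in both genotypes, where 1.41% of all genes fell in FP-KO and 19.5% in WT lungs. Of 8 tested, 6 fell in FP-KO and 8 in WT lungs, none passed on the interaction by limma, adjusted or not, and the median change was -0.87 in FP-KO and -0.85 in WT lungs. Gzma, a granule protease, read 1004, 1329, 1087 and 1645 in FP-KO Day 14 lungs and 4708, 3993, 2240.1 and 2826 in FP-KO Day 0 lungs, against 748, 596, 538, 1078 and 1300.2 in WT Day 14 lungs and 2662, 2406, 2844 and 3046 in WT Day 0 lungs. All Day 14 lungs, No. 2 included, lay below all Day 0 lungs. The interaction was 0.35, with a 95% interval of -0.32 to 1.02, and 0.32 without No. 2. The neutrophil genes S100a8 and S100a9, which encode calprotectin, fell in both genotypes too, and S100a9 had changes of -2.08 in FP-KO and -1.51 in WT lungs and an interaction of -0.57 ± 0.52 (adjusted p = 0.620, and 0.709 without No. 2).

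The 5 genes whose change passed in FP-KO and not in WT lungs were Slfn1 (a schlafen protein of lymphocyte quiescence), Rhoh (a GTPase of blood cells), Ms4a6b, Itgal (the α chain of the integrin LFA-1) and Tctex1d4 (a dynein light chain family member). Slfn1 read 159, 146, 94.5 and 171 in FP-KO Day 14 lungs and 315, 314, 209 and 296 in FP-KO Day 0 lungs, against 176, 231, 221, 218 and 163 in WT Day 14 lungs and 218, 175, 124 and 192 in WT Day 0 lungs. The FP-KO Day 14 lungs lay below the FP-KO Day 0 lungs while the WT days overlapped. Its interaction was -1.21 ± 0.32 (adjusted p = 0.0430), with changes of -1.01 in FP-KO and 0.20 in WT lungs. Itgal had changes of -0.53 in FP-KO and 0.10 in WT lungs and an interaction of -0.63 ± 0.16 (adjusted p = 0.0321), and Tctex1d4 changes of 0.52 in FP-KO and -0.16 in WT lungs and an interaction of 0.68 ± 0.16 (adjusted p = 0.0274). Without No. 2 the adjusted p of Slfn1 was 0.0813, of Itgal 0.0774 and of Tctex1d4 0.0617, and 0 genes remained in this class.

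With all mice no gene met the rule for a reversed response, and without No. 2 it was met by Rsph9, a radial spoke protein of motile cilia. It read 497, 372, 567 and 482 in FP-KO Day 14 lungs and 377, 397, 424 and 389 in FP-KO Day 0 lungs, against 429, 402, 425, 357 and 349 in WT Day 14 lungs and 457, 483, 484 and 420.5 in WT Day 0 lungs. With all mice its changes were 0.26 in FP-KO and -0.23 in WT lungs, and its interaction of 0.49 ± 0.14 did not pass (adjusted p = 0.0550). Without No. 2, which read lowest of its group, the interaction was 0.61 ± 0.12 (adjusted p = 0.0311). The classes depended on which Day 14 mice were used: with the first Day 14 set alone 27 genes met the rule for reversed and 62 that for kept, and with that set without No. 2 the numbers were 2 and 59. No more than 2 genes met the rule for reversed under any other alternative tried. The set alternatives kept all Day 0 lungs as the baseline, which lay at 2.48 to 7.97 on the second component. A shift shared by the Day 14 lungs of a set thus counts as change over time in both genotypes. Its part in these classes was not tested.

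An interaction can arise from a genotype difference on Day 14, on Day 0 or on both. On Day 14, 201 of the 222 genes lower on the interaction were lower in FP-KO than in WT lungs and 141 of the 154 higher ones were higher, by the limma test of that day, with median differences of -0.72 and 0.59. These tests share their Day 14 arrays with the interaction. On Day 0, 0 of the 376 differed by limma (89 of them, and 403 of all genes, had an unadjusted p under 0.05), yet 209 of the 222 read above WT and 152 of the 154 below it in FP-KO lungs, with medians of 0.25 and -0.17. The Day 14 difference was the larger for 351 of the 376. Day 0 thus entered the interaction in the same direction for nearly all of them. The Day 0 arrays are shared with the rule that called the genes. Among the named called genes, every FP-KO Day 0 value lay above every WT Day 0 value for Nuf2, C1qb, Icos, Oas1a and Itgal. Every one lay below for Cyp2e1, Cyp2b10, Dnah5 and Smad6, so the interactions of all these genes hold a part from Day 0.

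The Day 7 lungs, 4 of each genotype, are outside the interaction contrast but shared in the normalisation, filter and spread estimate that called the genes. There, 187 of the 222 genes lower on the interaction also read lower in FP-KO than in WT lungs and 135 of the 154 higher ones read higher, so that 322 of the 376 (85.6%) differed in the same direction as on Day 14. Over all tested genes 51.1% read above WT in FP-KO lungs at Day 7 and 48.9% below. The Day 7 differences were smaller, with medians of -0.18 and 0.18. None of the 376 passed at Day 7 by limma, where 1 gene was called in each direction (0.00829% each). An unadjusted p under 0.05 was found for 74 of the 376 and for 877 of all genes.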

How the data were processed

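RNA from whole lung of 25 female mice was labelled as biotin cRNA (6 ug of total RNA) and hybridised to Affymetrix mouse 430 2.0 arrays, per the labels' protocols. The deposited values are linear intensities per probe set, and all 25 arrays had the same mean of 500 after the top and bottom 2% of values were left out, so they had been scaled to a common trimmed mean before deposit; the sources used here do not say how probe sets were summarised. Array medians were 112.3 to 151.5. From the deposited intensities, values below 24.3 (the 20th percentile) were raised to 24.3, log2 was taken and arrays were quantile normalised. The number of arrays, not read depth, limits precision.

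Of 45101 probe sets, 34945 named 1 gene in the platform annotation, 932 named several, 9160 named none and 64 were controls. Each of 18193 genes was represented by its brightest probe set on average, and the 12062 that exceeded the array median on 4 or more arrays were tested. No 2 arrays were identical. limma 3.58.1 (R 4.3.3) fitted 6 group means over all 25 arrays, so the Day 7 groups share in the estimate of spread. Contrasts were the FP-KO change, the WT change, their difference and their mean, with eBayes and Benjamini-Hochberg adjustment over all tested genes at 0.05. The fit was checked on simulated data with known changes. Figures were drawn with matplotlib 3.10.9. Promoter windows are RefSeq sequences of GRCm38.p6.

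The genes named are Ptgfr, up to 12 genes each way with the largest called interaction, up to 6 of each class, kept genes, and up to 3 called members of each list by p or, with none called, the member with the largest mean change; symbols of clone type keep their place and are not described. Other list members are named to spell out counts, and Eln, Ccl2, Ccr2, Ccl8, Foxm1, Mcm2, S100a8, Rsph9 and the other genes outside this rule were chosen after their values were seen. The lists and classes were chosen with earlier results of these data known. Mouse numbers recur in all groups. Same-numbered arrays of the 2 genotypes had correlations between 0.119 and 0.345 (Day 0) and between -0.308 and 0.437 (Day 14), so all 4 Day 0 pairs lay above 0.1 and No. 3 of Day 14 did not, and the numbers were not taken to pair mice over both days. On Day 14, WT No. 3 lay in the first set and FP-KO No. 3 in the second, so the correlation of that pair cannot decide whether numbers mark blocks. Alternatives covered scaling, floor, filter, probe set choice, variance model, array weights, number block, Day 14 set and each array left out; the 2 alternatives that combine the set with leaving out FP-KO No. 2 were added after seeing the data.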

Additional observations from a re-analysis of the deposited data

Results flagged for a closer look

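The interaction is itself a difference between the genotypes' changes, so the named genes that passed on it are listed here as FP-KO change minus WT change on the log2 scale, by limma. Positive values were found for the muscle genes Nppa (2.24), Cox8b (2.20), Mb (2.04), Smpx (1.89), Ckmt2 (1.65) and Mybphl (1.58), with Tnni3 (1.26), Ryr2 (1.23) and Myl4 (0.93), and of the fat genes Adipoq (1.97) and Retn (1.42). Metabolic genes were Cyp2e1 (2.14), Car3 (1.77), Gsta2 (1.75), Acaa1b (1.65), Gsta3 (1.32), Gstm1 (1.18), Cyp2b10 (1.13), Cyp4b1 (1.04) and Gsta4 (0.60). Airway, vascular and signalling genes were Fgfbp1 (1.55), Igfbp6 (1.26), Dnah5 (1.05), Ednrb (0.91), Smad6 (0.78), Dynlrb2 (0.75), Aldh1a1 (0.71), Tekt1 (0.69), Tctex1d4 (0.68), Ptprb (0.53) and Itga8 (0.52).

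Negative values were found for the matrix genes Tnc (-2.28), Thbs4 (-2.25), Timp1 (-1.97), Col1a1 (-1.68), Mmp8 (-1.50), Mmp14 (-1.26), Col5a2 (-1.25), Ltbp2 (-1.20), Fmod (-0.98), Col1a2 (-0.87), Bmp1 (-0.79), Loxl1 (-0.74), Col4a1 (-0.60) and Bgn (-0.40), and for the contractile gene Tpm1 (-0.54). Genes of division were Nuf2 (-2.09), Aurkb (-2.01), Melk (-1.94), Plk1 (-1.88), Mki67 (-1.62) and Cdc20 (-1.44). Interferon and immune genes were Slfn9 (-2.10), Wfdc17 (-1.99), Oas3 (-1.94), Saa3 (-1.92), Cxcl10 (-1.59), C1qb (-1.46), Retnla (-1.39), C3ar1 (-1.37), Fcgr1 (-1.36), C1qa (-1.25), Slfn1 (-1.21), Iigp1 (-1.14), Oas1a (-1.03), Ptger4 (-0.93), Rhoh (-0.92), Icos (-0.84), Ms4a6b (-0.71) and Itgal (-0.63). The others were Chl1 (-2.50), Fam167b (-1.95), Ereg (-1.88) and Igf1 (-1.18). The sizes of some of these depend on the floor, which Thbs4 reached in 8 of the 17 arrays, Slfn9 and Fam167b in 5 each, Ereg in 4, Chl1 in 3 and Oas3 in 2. Trem2 reached it in 3 and Frzb in 2.

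Single lungs stood far from their group, by Dixon's test, in 31 of 395 combinations of a named gene and a group. The usual rate of about 1 in 20 is no reference here, because the genes were named from these same values. Trem2, Ccng1 and Tox3 were named as kept only without FP-KO Day 14 No. 2. For Thbs4 in FP-KO Day 0 and Fam167b in WT Day 0 lungs, all other values were at the floor, which fixes the call. FP-KO Day 14 No. 2 was the outlying lung in 13 of the 31. It was lowest for Tnc (218), Thbs4 (24.3, the floor), Col5a2 (2210.3), Fcgr1 (191), Cxcl10 (94.2), Trem2 (30.7) and Ccng1 (2608), and highest for Ckmt2 (577), Smad6 (5050.1), Dnah5 (317), Cyp2b10 (8536), Igfbp6 (5425) and Tox3 (1004). FP-KO Day 14 No. 1 was highest for Bgn (18452). Among FP-KO Day 0 lungs, No. 1 was highest for Thbs4 (37.3) and Loxl1 (2928), and No. 3 was lowest for Slfn1 (209), Col1a1 (1249) and Myl4 (2046) and highest for Gsta3 (5114). Of the WT Day 14 lungs, No. 5 was lowest for Melk (196), No. 4 highest for Ereg (282) and No. 2 lowest for Ryr2 (93.2). WT Day 0 No. 1 was highest for Slfn9 (31.7) and Ccng1 (3335) and lowest for Ptprb (13122). WT Day 0 No. 2 was lowest for Itgal (858) and Mki67 (195) and highest for Gpnmb (419), No. 3 was highest for Fam167b (32.1) and No. 4 lowest for Frzb (24.3, the floor).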

How the results depend on the processing

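The set alternatives restrict Day 14 alone and keep all Day 0 lungs, so changes over time in a set can hold a shift of that set. Counts below are genes that passed on the interaction, with higher and lower in FP-KO, against 376 (154 and 222). They were 167 (72 and 95) at a common median, 196 (97 and 99) without the filter, 240 (117 lower) with 17 arrays, 1006 (437 and 569) with array weights, 628 (261 and 367) with a term for the Day 14 set, 651 (281 and 370) in the first set, 0 (0 and 0) in the second, 15 (9 and 6) in the first without No. 2, 135 (63 and 72) with the term and without No. 2, and 161 (50 and 111) at a size of at least 1. With mouse number as a replicate block the count was 590 (268 higher), 576 of them blunted, 1 reversed and 2 kept; with a random block 1 was reversed. Mice correlated best with their own number in 3 of 4 pairs on Day 0 and 1 of 4 on Day 14. From the common median to the term without No. 2, in the order above and without the blocks, blunted genes numbered 165, 191, 234, 973, 599, 581, 0, 12 and 131, and genes gained or in neither class, 10 at first, 2, 5, 6, 31, 29, 42, 0, 0 and 3, with 6 for the mean of probe sets. FP-KO changes passed for 166 (common median), 228 (17 arrays), 726 (weights), 198 (set term), 1758 (first set) and 1113 (first set without No. 2). Reversed genes were 1 as deposited, 1 with eBayes trend, 2 with weights, 27 in the first set, 2 there without No. 2 and 1 with the term without No. 2. Kept genes were 7 with weights, 62 and 5 in the first and second sets, 59 in the first without No. 2 and 10 with the term without No. 2. Mean changes passed for 2991 with the set term and 2882 in the second set, where WT had 2488 and 123 responding genes were under 50%; 225 lay between 50 and 150% in the first set. Without No. 2 that set had a slope of 0.71, a median of 69.9%, 116 under 50% and 445 between.

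Leaving out 1 array at a time gave 123 to 613 (51 to 259 higher, 70 to 373 lower), 105 to 570 FP-KO, 3836 to 4931 WT and 4039 to 4959 mean changes, 122 to 597 blunted, 0 to 1 reversed, 0 to 16 gained or neither and 0 to 7 kept, slopes of 0.39 to 0.53, medians of 37.7 to 54.2%, 154 to 216 under 50% and 69 to 216 between. Over 74 named interactions and 2655 values under these alternatives, 0 changed sign, in genes called on mostly the same arrays. Of the 2655 values 676 no longer passed, and 38 of the 74 interactions passed without No. 2. The causes were not tested.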

Other observations

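The remaining gene lists are given as counts and medians. Over all tested genes, 19.1% rose and 19.5% fell in WT lungs, and several WT counts below lie near these shares. Of 13 circadian clock genes, 0 passed in FP-KO lungs over time by limma (1 fell at an unadjusted p under 0.05), 7 fell in WT lungs and 0 passed on the interaction (4 higher unadjusted), with medians of -0.22 in FP-KO and -0.55 in WT. Of 9 metallothionein and glucocorticoid-responsive genes, 1 rose in FP-KO lungs, 3 rose and 1 fell in WT lungs and 0 passed on the interaction (1 unadjusted). One of them, Mt2, a zinc-binding metallothionein, read 1786, 1950.0, 1063 and 918 in FP-KO and 1854, 2212, 1061 and 869 in WT lungs on Day 0, so that No. 1 and 2 lay above No. 3 and 4 in both genotypes. Of 13 secretory pathway chaperones, 1 rose in FP-KO and 6 in WT lungs, 1 fell in WT lungs, and 0 passed on the interaction (2 lower unadjusted). Of 9 Wnt modulators, 1 rose in FP-KO lungs, 5 rose and 2 fell in WT lungs, and 0 passed on the interaction (2 lower unadjusted). In the IL-6 and acute phase list, 2 of 12 rose in FP-KO and 9 in WT lungs, and Saa3 alone passed on the interaction, and not without No. 2. Of 9 T cell genes, 3 fell in FP-KO and 4 in WT lungs, and Icos, a costimulatory receptor, passed on the interaction at -0.84 (adjusted p = 0.0342, and 0.0667 without No. 2). Of 11 B and plasma cell genes, 3 fell in FP-KO lungs, 2 rose and 4 fell in WT lungs, and 0 passed on the interaction (1 lower unadjusted).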
